A study of Mus musculus with 18 samples.

Results

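The genes described here are 8 markers of the cells that wrap blood vessels, measured in 18 mouse tumors. They are the pericyte genes *Pdgfrb*, *Rgs5*, *Cspg4*, and *Notch3*, and the smooth muscle genes *Acta2*, *Myh11*, *Cnn1*, and *Tagln*. They were chosen by name, and 8 of 8 were found among the 20878 genes of the expression matrix. The tumors grew under the skin from injected cells of K7M2, an osteosarcoma line established from a Balb/c mouse. ATRXKD cells carried an shRNA against *Atrx*, a chromatin remodeler gene, and ATRXCT cells carried a control shRNA, so the cells of both groups were transduced with a lentivirus. Balb/c mice, which share the strain of the line and have an intact immune system, bore 4 ATRXCT and 4 ATRXKD tumors. NSG mice, which lack T, B, and NK cells, bore 5 ATRXCT and 5 ATRXKD tumors. The study's methods describe the mice as females of a few weeks of age, and each sequenced tumor came from a different animal. In those methods, whole cages were assigned to one kind of cells, and the labels give no cage, so cage and shRNA cannot be told apart.

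Pericytes are mural cells that sit on the outside of capillaries, under the same basement membrane as the endothelium, whereas smooth muscle cells form the contractile coat of larger vessels. Endothelial cells secrete PDGF-B, which recruits pericytes through the receptor encoded by *Pdgfrb*, and they present Jagged and Delta ligands to *Notch3* on mural cells. Contractile smooth muscle cells express actin, myosin, and actin-binding proteins under serum response factor and its coactivator myocardin. Some of these genes, *Acta2* and *Tagln* in particular, are also expressed by myofibroblasts and by other cultured mesenchymal cells. Bulk RNA does not separate fewer mural cells from less RNA of these genes per cell, and these cannot be told apart here. The tumor cells and the host cells are both of mouse origin, so the source of each transcript was not determined.

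Levels are given in FPKM (sequenced fragments per transcript length and library size), converted back from the deposited log2 (FPKM + 1). Fold changes are differences on the log2 (FPKM + 1) scale, which understates changes of genes with low FPKM. Groups were compared with limma over all genes that averaged 0.1 FPKM or more, and a gene was called when its Benjamini-Hochberg adjusted p was under 0.05 with a fold change of at least 2. Depth, estimated from the steps between low values, was between 14800000 and 25200000 fragments per library and is approximate.

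Several facts of the series bear on these values. *Atrx* was at 17.6 ± 7.12 FPKM in ATRXCT and 14.0 ± 6.54 FPKM in ATRXKD tumors of Balb/c mice (SD, n = 4 each), and at 17.6 ± 4.99 and 10.2 ± 3.47 FPKM in NSG mice (SD, n = 5 each). It did not pass the test in Balb/c mice (log2 fold change −0.34, adjusted p = 0.999 in limma) or in NSG mice (−0.74, adjusted p = 0.061), and the ranges overlapped in both hosts. For the cell lines themselves, K7M2 included, the study reported loss of the ATRX protein by Western blot. The share of *Atrx* RNA that came from host cells of the tumors was not determined. The Y-linked gene *Eif2s3y* was at 0 FPKM in all 8 Balb/c tumors and between 5.64 and 14.4 FPKM in all 10 NSG tumors, which goes against the methods' description of female hosts for the NSG tumors. Host strain and this difference in Y-linked expression cannot be told apart. Libraries also differed in how their values changed along transcript length, and the slopes, in log2 units for each doubling, ran from −0.149 to 0.213 and overlapped between all groups. Their medians in ATRXCT and ATRXKD tumors were 0.074 and 0.011 in Balb/c mice, above −0.068 and −0.043 in NSG mice.

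The members covered a wide range of levels. Per length of transcript, the means over all tumors were 15.4 FPKM for *Acta2*, 8.76 for *Rgs5*, 8.53 for *Pdgfrb*, and 2.56 for *Tagln*. *Notch3* followed at 0.626 FPKM, *Cspg4* at 0.241, *Myh11* at 0.159, and *Cnn1* at 0.0555. Neighbors in this order overlapped across the tumors, and the order of *Rgs5* and *Pdgfrb* is within their spread. The 3 lowest genes rest on few fragments. *Cnn1* was at or under 3 fragments in 3 of 4 and 2 of 4 Balb/c tumors and in 5 of 5 and 3 of 5 NSG tumors (ATRXCT and ATRXKD, respectively) and was below the filter on low values, which left 7 members in the tests.

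**Figure D1:**
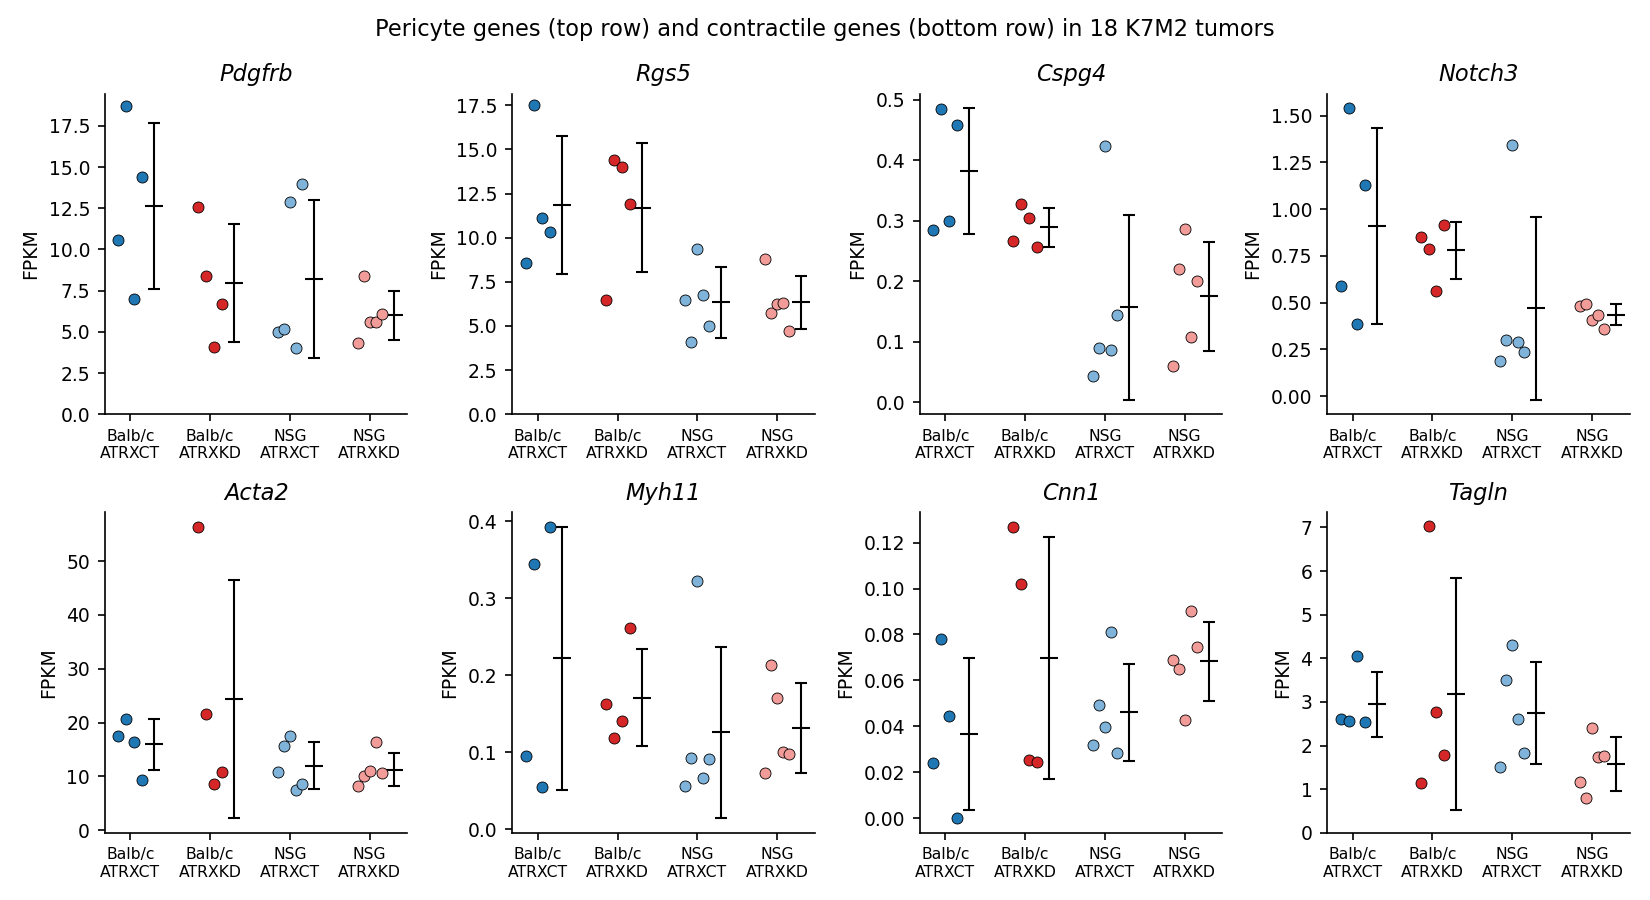
Level of each of the 8 genes in each tumor, in FPKM on a separate linear axis per gene, with points for single tumors and lines for the group mean ± SD (n = 4, 4, 5, and 5). *Rgs5* sits higher in both Balb/c groups (means 11.9 and 11.7 FPKM) than in both NSG groups (6.35 in each), with overlap between the hosts for each shRNA, and among ATRXKD tumors *Notch3* separates the hosts without overlap (0.563 to 0.916 against 0.356 to 0.492 FPKM).

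*Rgs5*, a regulator of G-protein signaling found at high levels in pericytes, maps to mm10 chromosome 1 (169655501 to 169695813, plus strand). In Balb/c mice, the ATRXCT tumors of mice 41, 43, 44, and 45 had 8.56, 17.5, 11.1, and 10.3 FPKM, and the ATRXKD tumors of mice 56, 58, 59, and 60 had 6.46, 14.4, 14.0, and 11.9 FPKM. In NSG mice, the ATRXCT tumors of mice 1 to 5 had 6.5, 4.10, 9.36, 6.77, and 5.00 FPKM, and the ATRXKD tumors of mice 26 to 30 had 8.78, 5.74, 6.26, 6.29, and 4.70 FPKM. The Balb/c values were mostly above the NSG values, and 1 tumor in each pair of groups kept the hosts from separating completely. Within a host, the ranges of ATRXCT and ATRXKD tumors overlapped.

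*Pdgfrb* encodes the receptor for PDGF-B and maps to chromosome 18 (61045150 to 61085067, plus strand, 23 exons). In Balb/c mice it was at 10.6, 18.7, 6.97, and 14.4 FPKM in ATRXCT tumors and at 12.6, 8.40, 4.08, and 6.71 FPKM in ATRXKD tumors. In NSG mice it was at 4.98, 5.17, 12.9, 4.01, and 14.0 FPKM in ATRXCT tumors and at 4.34, 8.40, 5.60, 5.59, and 6.06 FPKM in ATRXKD tumors. ATRXCT tumors of NSG mice fell into low and high values, with mice 3 and 5 at the level of the Balb/c tumors. All 4 groups overlapped.

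*Notch3*, the Notch receptor of mural cells, maps to chromosome 17 (32120893 to 32166852, minus strand, 33 exons). Its levels in Balb/c mice were 0.586, 1.54, 0.385, and 1.13 FPKM in ATRXCT tumors and 0.852, 0.786, 0.563, and 0.916 FPKM in ATRXKD tumors. In NSG mice, ATRXCT tumors had 0.185, 0.299, 1.34, 0.287, and 0.235 FPKM and ATRXKD tumors 0.484, 0.492, 0.407, 0.432, and 0.356 FPKM. The tumor of NSG mouse 3 stood far above the other 4 of its group, and among ATRXKD tumors all 4 of Balb/c mice were above all 5 of NSG mice. *Cspg4*, which encodes the NG2 proteoglycan of the pericyte surface (chromosome 9, 56865104 to 56899870, plus strand, 10 exons), ranged from 0.285 to 0.485 FPKM in ATRXCT and from 0.257 to 0.327 FPKM in ATRXKD tumors of Balb/c mice. In NSG mice it ranged from 0.0427 to 0.423 FPKM in ATRXCT and from 0.0603 to 0.286 FPKM in ATRXKD tumors, where again mouse 3 had the highest ATRXCT value.

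*Acta2*, which encodes smooth muscle alpha-actin, maps to chromosome 19 (34240336 to 34255373, minus strand, 9 exons). It was at 17.6, 20.6, 16.4, and 9.29 FPKM in ATRXCT and 56.4, 21.6, 8.63, and 10.8 FPKM in ATRXKD tumors of Balb/c mice. In NSG mice it was at 10.8, 15.6, 17.5, 7.57, and 8.65 FPKM in ATRXCT and 8.25, 10, 11, 16.4, and 10.7 FPKM in ATRXKD tumors. The ATRXKD tumor of Balb/c mouse 56 carried the highest value by far, and the other 17 tumors overlapped between groups.

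*Tagln*, also known as SM22-alpha, encodes an actin-binding protein of smooth muscle and maps to chromosome 9 (45929628 to 45936058, minus strand, 5 exons). Its levels were 2.6, 2.57, 4.05, and 2.55 FPKM in ATRXCT and 1.13, 7.03, 2.77, and 1.79 FPKM in ATRXKD tumors of Balb/c mice. In NSG mice they were 1.51, 3.50, 4.31, 2.61, and 1.82 FPKM in ATRXCT and 1.17, 0.808, 2.41, 1.74, and 1.77 FPKM in ATRXKD tumors. The highest *Acta2* tumor, mouse 56, had the lowest *Tagln* of its group. Of its transcribed range, 96 nt, or 6.05% of its transcript, overlap *Pcsk7* on the other strand, which was at 6.42 to 10.2 FPKM, and whether the counting used strand is not stated, so a share of *Tagln* fragments from the other strand was not tested. Over all GENCODE transcripts of *Tagln*, 53.3% of the 75-nt windows lie opposite a transcript of *Pcsk7* or *Gm48529*.

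*Myh11* and *Cnn1*, the smooth muscle myosin heavy chain and calponin, are among the most restricted markers of contractile smooth muscle. *Myh11* (chromosome 16, 14194527 to 14291408, minus strand) ranged from 0.0552 to 0.392 FPKM in ATRXCT and from 0.118 to 0.261 FPKM in ATRXKD tumors of Balb/c mice, and from 0.0559 to 0.323 and from 0.0733 to 0.214 FPKM in NSG mice. *Cnn1* (chromosome 9, 22099253 to 22109221, plus strand, 7 exons) stayed between 0 and 0.127 FPKM in all 18 tumors. Some genes of the contractile list were as low: *Lmod1*, encoding leiomodin, did not exceed 0.114 FPKM, *Kcnmb1*, encoding a subunit of the BK channel, did not exceed 0.0833 FPKM, and *Pln*, encoding phospholamban, was at 0 FPKM in 17 of 18 tumors. The myocardin gene *Myocd* was between 0 and 0.203 FPKM. Other genes of the contractile list were higher, among them *Smtn*, encoding smoothelin, at 18.7 to 41.0 FPKM, *Mylk*, encoding myosin light chain kinase, at 9.5 to 16.2 FPKM, and *Des*, encoding the muscle intermediate filament desmin, at 1.24 to 31.4 FPKM. Contractile genes that non-muscle cells express widely were abundant, with *Tpm1* at 224 to 376, *Myl6* at 288 to 644, *Cald1* at 89.7 to 128, and *Csrp1* at 48.1 to 118 FPKM. The smooth muscle genes were thus uneven, with *Myh11*, *Cnn1*, *Lmod1*, *Kcnmb1*, *Pln*, and *Myocd* low or at 0 and *Smtn*, *Mylk*, and *Des* present in every tumor. On the contractile list, *Actg2*, *Synpo2*, and *Itga8* were low as well, at most 0.993, 0.64, and 0.217 FPKM. Of the 4 contractile members only *Acta2* and *Tagln*, the less restricted pair, exceeded 1 FPKM in any tumor.

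The first comparison addressed whether knock-down of *Atrx* changed these genes in each host. In Balb/c mice, no member passed the test: 0 of 7 were called, against 0.00680% of all genes tested, and 0 of 7 had an unadjusted p under 0.05 in limma, against 4.14% of all genes. The largest difference was that of *Pdgfrb*, at 12.7 ± 5.03 FPKM (SD, n = 4) in ATRXCT and 7.94 ± 3.56 FPKM (SD, n = 4) in ATRXKD tumors, or −0.62 on the log2 scale (95% interval −1.4 to 0.15, adjusted p = 0.999 in limma). An exact permutation test of *Pdgfrb*, two-sided, gave p = 0.2, where 0.0286 is the smallest value that 4 against 4 tumors allow. *Acta2* differed by 0.26 with an interval from −0.89 to 1.41, and this value was −0.26 without the tumor of mouse 56. The other 5 differed by −0.10 to −0.03, and the median over the 7 members was −0.07, where the median of all genes was near 0.

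In NSG mice, 0 of 7 members were called, against 0.464% of all genes tested. *Tagln* came nearest, at 2.75 ± 1.17 FPKM in ATRXCT and 1.58 ± 0.614 FPKM in ATRXKD tumors (SD, n = 5 each). It differed by −0.52 on the log2 scale (standard error 0.225, 95% interval −1.01 to −0.03), with p = 0.0409 before and 0.169 after adjustment in limma, and p = 0.0952 in a two-sided exact permutation test. It was thus 1 member of 7 that was lower at an unadjusted p under 0.05, where 12.5% of all genes were. *Pdgfrb* differed by −0.26 (adjusted p = 0.625 in limma) and the other members by −0.05 to 0.03 (adjusted p from 0.886 to 0.965). *Rgs5* had the same mean of 6.35 FPKM in both groups.

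The effects of the knock-down in Balb/c and NSG mice were also compared with each other. Of 7 members, 0 were called in the interaction, nor was any other gene (0% of 14803), while 10.3% of all genes had an unadjusted p under 0.05 in limma. Differences between the hosts ranged from −0.36 for *Pdgfrb* to 0.43 for *Tagln*, with adjusted p from 0.786 to 0.975. With both hosts in 1 fit chosen after seeing the data, the knock-down difference was −0.44 for *Pdgfrb* (95% interval −0.96 to 0.08, adjusted p = 0.384 in limma), −0.30 for *Tagln* (adjusted p = 0.523), and −0.00 for *Rgs5* (−0.37 to 0.36). Again 0 of 7 members were called, against 0.122% of all genes.

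**Figure D2:**
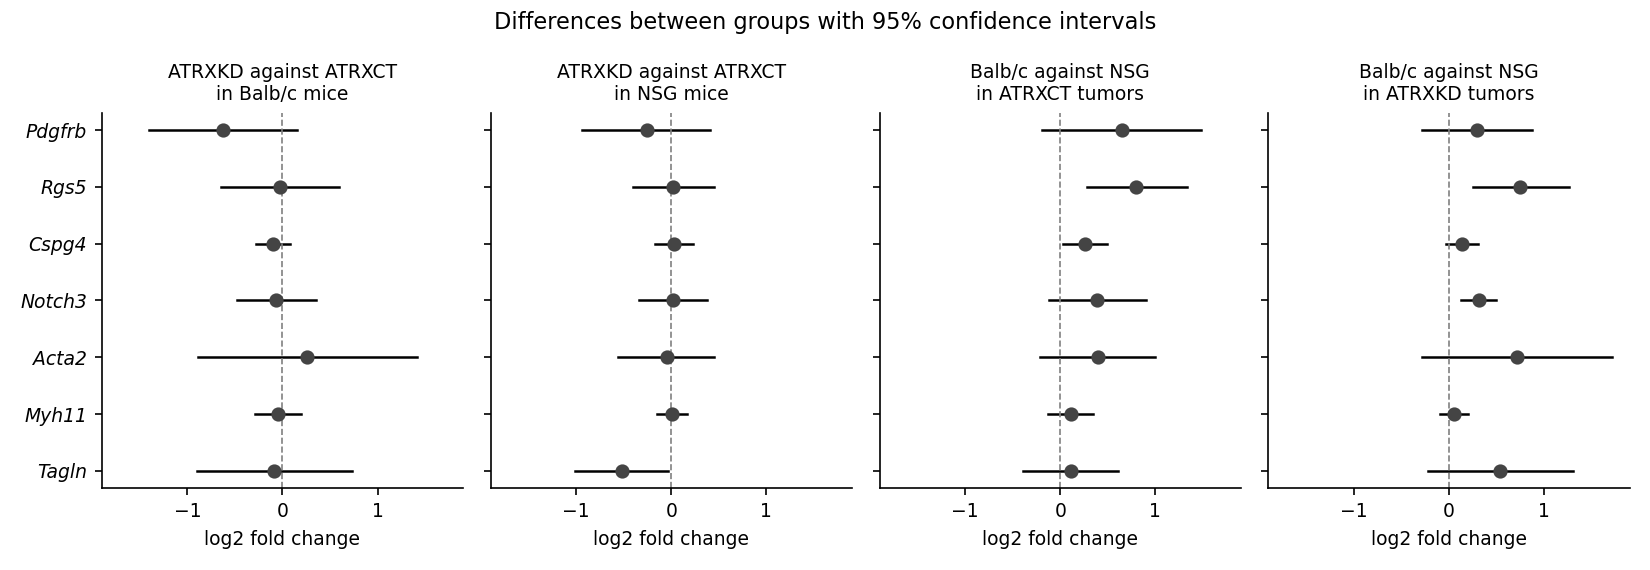
Log2 fold change of each of the 7 tested genes in 4 comparisons, with bars for the 95% interval from limma and a line at 0. Intervals that leave out 0 are those of *Rgs5* in both host comparisons, of *Cspg4* between hosts in ATRXCT tumors, of *Notch3* between hosts in ATRXKD tumors, and of *Tagln* for the knock-down in NSG mice, none of them past the adjusted threshold.

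The second comparison was between hosts for tumors with the same shRNA. Among ATRXCT tumors, 0 of 7 members were called, against 1.43% of all genes tested. *Rgs5* was higher by 0.80 on the log2 scale in Balb/c mice (11.9 ± 3.93 FPKM, n = 4, against 6.35 ± 2.01 FPKM, n = 5, SD), with a 95% interval from 0.28 to 1.33 and an adjusted p of 0.105 in limma (exact permutation test, two-sided, p = 0.0238). *Cspg4* differed by 0.26 (interval 0.03 to 0.49, adjusted p = 0.206 in limma, exact permutation p = 0.0476). *Pdgfrb* differed by 0.65 with an interval from −0.19 to 1.48. Of 7 members, 2 were thus higher at an unadjusted p under 0.05, where 11.5% of all genes were. The NSG tumor of mouse 3, the highest of its group in *Rgs5* and *Cspg4*, bore on both values: without it, the adjusted p in limma was 0.0408 for *Rgs5* and 0.0438 for *Cspg4*. For each gene this was the only 1 of 9 fits with 1 tumor left out that was under 0.05. The adjusted p in these fits reached 0.277 for *Rgs5* and 0.443 for *Cspg4*. The tumor of mouse 3 was also the highest of its group in summed markers of skeletal muscle (421 FPKM) and of endothelium (65.0 FPKM). Its slope along transcript length was the highest of the group as well (0.102). The part of these differences in its *Rgs5* and *Cspg4* values was not tested.

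Among ATRXKD tumors, 0 of 7 members were called, against 1.39% of all genes tested. *Rgs5* was higher by 0.75 in Balb/c mice (11.7 ± 3.65 against 6.35 ± 1.5 FPKM, 95% interval 0.25 to 1.26, adjusted p = 0.12 in limma, exact permutation p = 0.0397). Without the ATRXKD tumor of Balb/c mouse 56, the lowest *Rgs5* of the Balb/c tumors, the difference was 0.99 (adjusted p = 0.012 in limma). This was the only 1 of 9 fits with 1 tumor left out that was under 0.05, and the highest adjusted p was 0.278. *Notch3* was at 0.779 ± 0.154 FPKM in Balb/c and 0.434 ± 0.0563 FPKM in NSG tumors, a difference of 0.31 (interval 0.13 to 0.49, adjusted p = 0.0762 in limma). All its Balb/c tumors were above all its NSG tumors, which held for 5.08% of all genes tested, and its exact permutation p of 0.00794 was the smallest possible. Without mouse 59, the adjusted p of *Notch3* in limma was 0.033, again the only 1 of 9 such fits under 0.05, with values up to 0.195. *Rgs5* and *Notch3* were the 2 of 7 members that were higher at an unadjusted p under 0.05, where 9.93% of all genes were. *Acta2* differed by 0.71 and *Tagln* by 0.54, neither beyond its spread (adjusted p = 0.471 and 0.473 in limma).

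The host difference was then averaged over both kinds of tumors in a fit of all 18, which was chosen after seeing the data. With a fold change of at least 2 required, 0 of 7 members were called, against 1.44% of all genes. At an adjusted p under 0.05 with any fold, 2 of 7 members were higher in Balb/c mice, against 6.83% of all genes higher. *Rgs5* was higher by 0.78 (standard error 0.173, 95% interval 0.41 to 1.14), which is a ratio of 1.72 (1.33 to 2.21) on the FPKM + 1 scale, with an adjusted p of 0.00696 in limma. A two-sided exact permutation test with hosts permuted within each shRNA gave p = 0.000882 for *Rgs5*. *Cspg4* was higher by 0.20 (interval 0.07 to 0.33, adjusted p = 0.0475 in limma, exact permutation p = 0.00624); its highest level in any tumor was 0.485 FPKM. Leaving out 1 tumor at a time, the adjusted p stayed under 0.05 in 18 of 18 fits for *Rgs5* (0.00121 to 0.0179) and in 4 of 18 for *Cspg4* (0.00487 to 0.108).

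The other members did not pass the test for the averaged host difference. *Notch3* differed by 0.35 (interval 0.08 to 0.62, adjusted p = 0.0993 in limma) and *Acta2* by 0.55 (adjusted p = 0.225). *Pdgfrb* differed by 0.47 (adjusted p = 0.24), *Tagln* by 0.33 (adjusted p = 0.357), and *Myh11* by 0.08 (adjusted p = 0.432). All 7 tested members had a value above 0, as 50.4% of all genes did, and their median was 0.35.

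Genes of the same cells and pathways were set beside the members. Of 12 other pericyte genes tested, 10 had an averaged host difference above 0 (50.4% of all genes), with a median of 0.40. At an adjusted p under 0.05 with any fold, 4 were higher in Balb/c mice (6.83% of all genes). This is the threshold meant for the lists that follow. *Kcnj8*, a pore subunit of the ATP-sensitive potassium channel of pericytes, was higher by 1.06 (adjusted p = 9.73e-07 in limma). It ranged from 2.11 to 3.41 and from 3.45 to 6.08 FPKM in the ATRXCT and ATRXKD tumors of Balb/c mice, and from 0.769 to 1.38 and from 1.18 to 1.73 FPKM in those of NSG mice, so the hosts did not overlap. *Cox4i2*, a subunit of cytochrome c oxidase, was higher by 1.13 (adjusted p = 0.00209), with all Balb/c tumors at or above 1.28 FPKM and all NSG tumors at or below 0.844 FPKM. The share of all genes that separated the hosts over all 18 tumors is not given here. Among ATRXKD tumors alone, 5.08% of all genes tested were higher in Balb/c mice without overlap. *Abcc9*, which encodes the regulatory subunit of the same potassium channel, was higher by 0.51 (adjusted p = 0.0364), and *Rgs4*, a relative of *Rgs5*, by 0.39 (adjusted p = 0.0357). For the knock-down in NSG mice, *Mcam*, an adhesion molecule of vessel walls that endothelial cells also express, was called higher in ATRXKD tumors (1.06, adjusted p = 0.0483 in limma), with 3.81 to 14.7 FPKM in ATRXCT and 9.74 to 16.5 FPKM in ATRXKD tumors. *Ndufa4l2*, a mitochondrial protein gene on the pericyte list, also passed at any fold (0.80, adjusted p = 0.0364 in limma). The list did not move in 1 direction: of its 12 genes in NSG mice, 3 were higher and 2 lower at an unadjusted p under 0.05. The lower ones were *Anpep* (−0.69, adjusted p = 0.0898 in limma) and *Tbx18* (−0.44, adjusted p = 0.117 in limma). Of all genes, 13.8% were higher and 12.5% lower, and the list median was 0.08. In Balb/c mice, 9 of 11 tested genes of the list were above 0, the median was 0.27, and 0 passed the adjusted threshold. At an unadjusted p under 0.05 in limma, 2 were higher and 1 lower there, against 4.14% of all genes in either direction. The lower one was *Tbx18* (−0.68, adjusted p = 0.388 in limma). For the knock-down over both hosts, 1 of the 12 was higher and 1 lower at the adjusted threshold.

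Of 13 genes of the contractile apparatus tested, 0 passed the adjusted threshold for the averaged host difference, 4 had a value above 0, and the median was −0.04. For the 5 regulators around serum response factor, 0 passed and the median was 0.03. *Srf* itself was at 10.7 to 19.5 FPKM and *Klf4* at 29.1 to 57.7 FPKM over all tumors. None of these genes was called for the knock-down in either host.

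In the PDGF pathway, 0 of 6 ligands and other receptors passed the adjusted threshold for the averaged host difference, and the median was 0.05. The ligand of the pericyte receptor, *Pdgfb*, was at 4.98 to 12.8 FPKM and differed by 0.36 (adjusted p = 0.0931 in limma). In the Notch pathway, 11 of 11 genes had a value above 0 (50.4% of all genes), with a median of 0.39. The adjusted threshold was passed by 3 as higher in Balb/c mice (6.83% of all genes). These were *Dll4*, an endothelial ligand (0.74, adjusted p = 0.00353), *Notch1*, a receptor (0.79, adjusted p = 0.0173), and *Nrarp*, a target gene that dampens Notch signaling (0.49, adjusted p = 0.0292). *Jag1*, the ligand that acts on mural *Notch3*, differed by 0.48 (adjusted p = 0.0508). The mural target genes *Heyl* and *Hey2* were close to 0, at most 0.333 and 0.153 FPKM. The part of the slope along transcript length in the values of the Notch list was not tested. Of 13 TGF-beta genes, 2 passed as higher (6.83% of all genes), and the median was −0.00.

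Markers of other cells moved with the host as well. Of 10 endothelial markers, 9 were above 0, and 5 passed the adjusted threshold as higher in Balb/c mice (6.83% of all genes). The median was 0.54, with *Cdh5* (1.08) and *Cldn5* (1.06) called. The sum of the list ranged from 55.3 to 88.7 and from 77 to 184 FPKM in the ATRXCT and ATRXKD tumors of Balb/c mice, and from 26.7 to 65.0 and from 56.2 to 79.0 FPKM in those of NSG mice. Fibroblast markers moved the other way, 5 of 8 being lower in Balb/c mice at the adjusted threshold (3.71% of all genes), with *Dpt* (−1.41) and *Mfap5* (−1.42) called. Skeletal muscle markers, whose sum ran from 1.97 to 591 FPKM between tumors, had 0 of 11 past the threshold. T cell markers differed most, 6 of 7 being called higher in Balb/c mice with a median of 2.23, and of 8 macrophage markers 2 were lower (median −0.11). The part of these cells in the host difference of *Rgs5* and *Cspg4* was not tested.

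Marker lists also differed for the knock-down. In ATRXKD tumors of NSG mice, 9 of the 10 endothelial markers were higher at an unadjusted p under 0.05 (13.8% of all genes) and 3 at the adjusted threshold (3.73% of all genes). Their median was 0.66, against a median of 0.01 for the members. In Balb/c mice, 3 of the 10 were higher at an unadjusted p under 0.05 and 0 at the adjusted threshold, with a median of 0.5. Of the 8 macrophage markers, 7 were lower in ATRXKD tumors of NSG mice at an unadjusted p under 0.05 (12.5% of all genes, median −0.47). Among them *C1qb*, a complement gene, was past the adjusted threshold (−0.74, adjusted p = 0.0268 in limma). The remaining marker, *Csf1r*, was higher at an unadjusted p under 0.05 (0.37, adjusted p = 0.114 in limma). Adipocyte markers had medians of 0.85 in NSG and 0.74 in Balb/c mice, with 0 past the adjusted threshold in either host. In the fit over both hosts, 2 of 8 adipocyte and 4 of 10 endothelial markers were higher at that threshold, as were 203 of 14803 genes. The part of these cells in the members' values was not tested. In NSG mice, *Dll4* was higher by 0.51 (adjusted p = 0.0306 in limma).

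**Figure D3:**
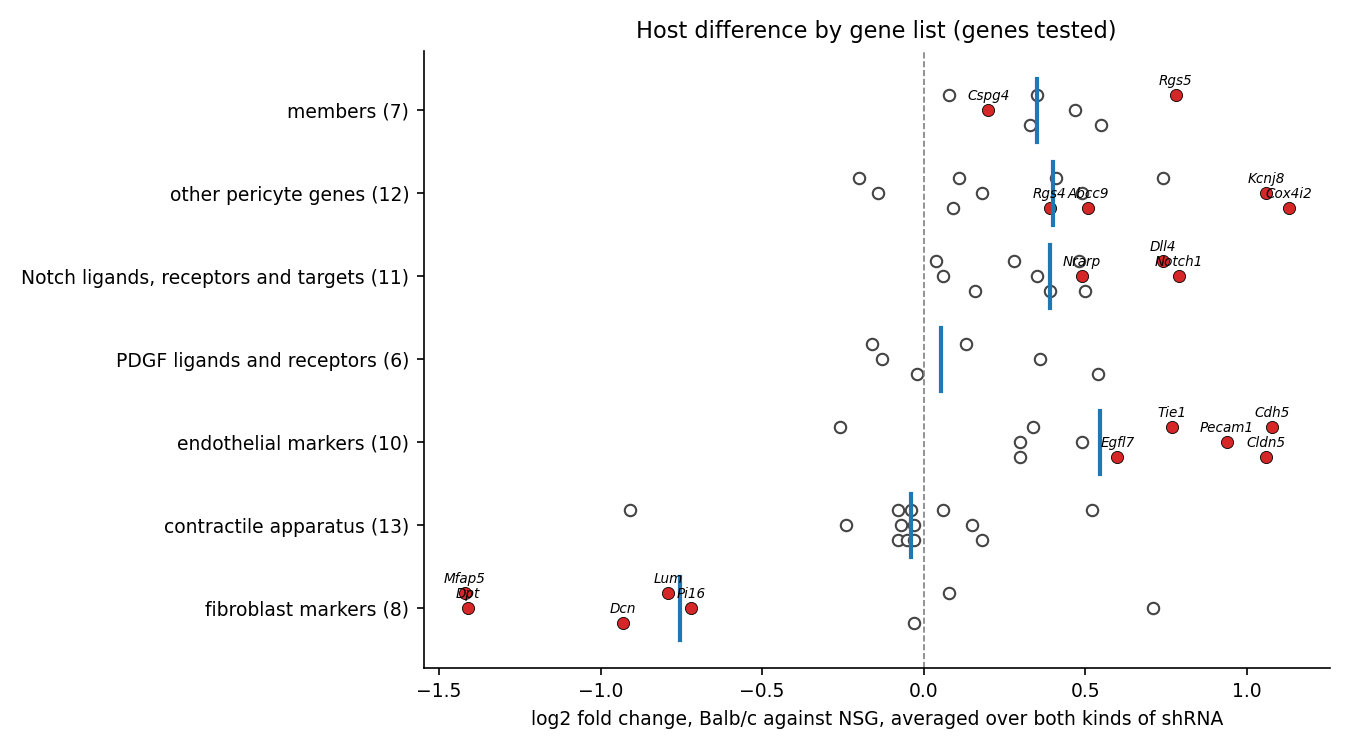
Difference between Balb/c and NSG mice, averaged over both kinds of tumors, for each tested gene of 7 lists on the log2 (FPKM + 1) scale, with filled red points for genes at an adjusted p under 0.05 in limma and a blue line for the list median. Medians are 0.35 for the members, 0.40 for the other pericyte genes, 0.39 for Notch, and 0.54 for endothelial genes, against −0.04 for the contractile apparatus and −0.76 for fibroblast genes.

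The members were finally compared with each other across the 18 tumors, with the mean of each group removed, in relations chosen after seeing the data. Among the 28 pairs, 20 had a positive r, and 0 passed an adjusted p of 0.05 in a permutation test within groups. The closest pair was *Notch3* and *Myh11* (r = 0.87, rho = 0.82, adjusted permutation p = 0.0722), both long transcripts at low levels. *Rgs5* had r from −0.32 (with *Acta2*) to 0.47 (with *Notch3*, rho = 0.33), with adjusted permutation p from 0.284 to 0.957.

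*Pdgfrb* and *Notch3* tended to be high where the endothelial list was high. The correlation of its mean with *Pdgfrb* was r = 0.73 and rho = 0.75 (permutation p = 0.00348 for r, 0.0611 after adjustment over 40 relations with lists), and r was 0.62 without the 2 tumors farthest from the median. With *Notch3* it was r = 0.73 and rho = 0.67 (permutation p = 0.00477, adjusted 0.0611). *Acta2* gave r = 0.71 and rho = 0.57 (permutation p = 0.0114, adjusted 0.0717), falling to 0.48 without the 2 farthest tumors. *Rgs5* gave r = −0.06 and rho = −0.05 (permutation p = 0.849, adjusted 0.94). Of the 40 relations, 1 passed at an adjusted p under 0.05, that of *Notch3* with the other pericyte genes (r = 0.83, adjusted permutation p = 0.048, and rho = 0.72, adjusted 0.058), and its r was 0.61 without the 2 farthest tumors.

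The slope of a library along transcript length moved with the same genes. It correlated with *Pdgfrb* (r = 0.75, rho = 0.76, adjusted permutation p = 0.00304), *Myh11* (r = 0.78, rho = 0.73, adjusted 0.00304), and *Notch3* (r = 0.68, rho = 0.69, adjusted 0.00704), 3 of 8 members. Without the 2 tumors farthest from the median slope, r was 0.66, 0.85, and 0.67. The other 5 did not pass, *Rgs5* (r = −0.16) and *Cnn1* (r = 0.01) among them. With the trend along length removed from each library, the SD within groups was lower by 17.7% for *Pdgfrb*, 21.9% for *Notch3*, and 20.9% for *Myh11*, and the r with the endothelial list was 0.64 for *Pdgfrb* and 0.57 for *Notch3*. A relation of these genes with the slope remained after the removal, and its source was not tested. Their r with the slope was still 0.63 for *Pdgfrb*, 0.69 for *Myh11*, and 0.42 for *Notch3*. The endothelial list and the slope also shared tumors at their ends. With group means removed, the list was highest in NSG mouse 3 (0.69, slope 0.15) and Balb/c mouse 56 (0.611, slope 0.185). It was lowest in Balb/c mouse 59 (−0.511, slope −0.152), while NSG mouse 27 had a slope of 0.148 with a list value of 0.026. Whether these genes followed the list apart from the slope was not tested.

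**Figure D4:**
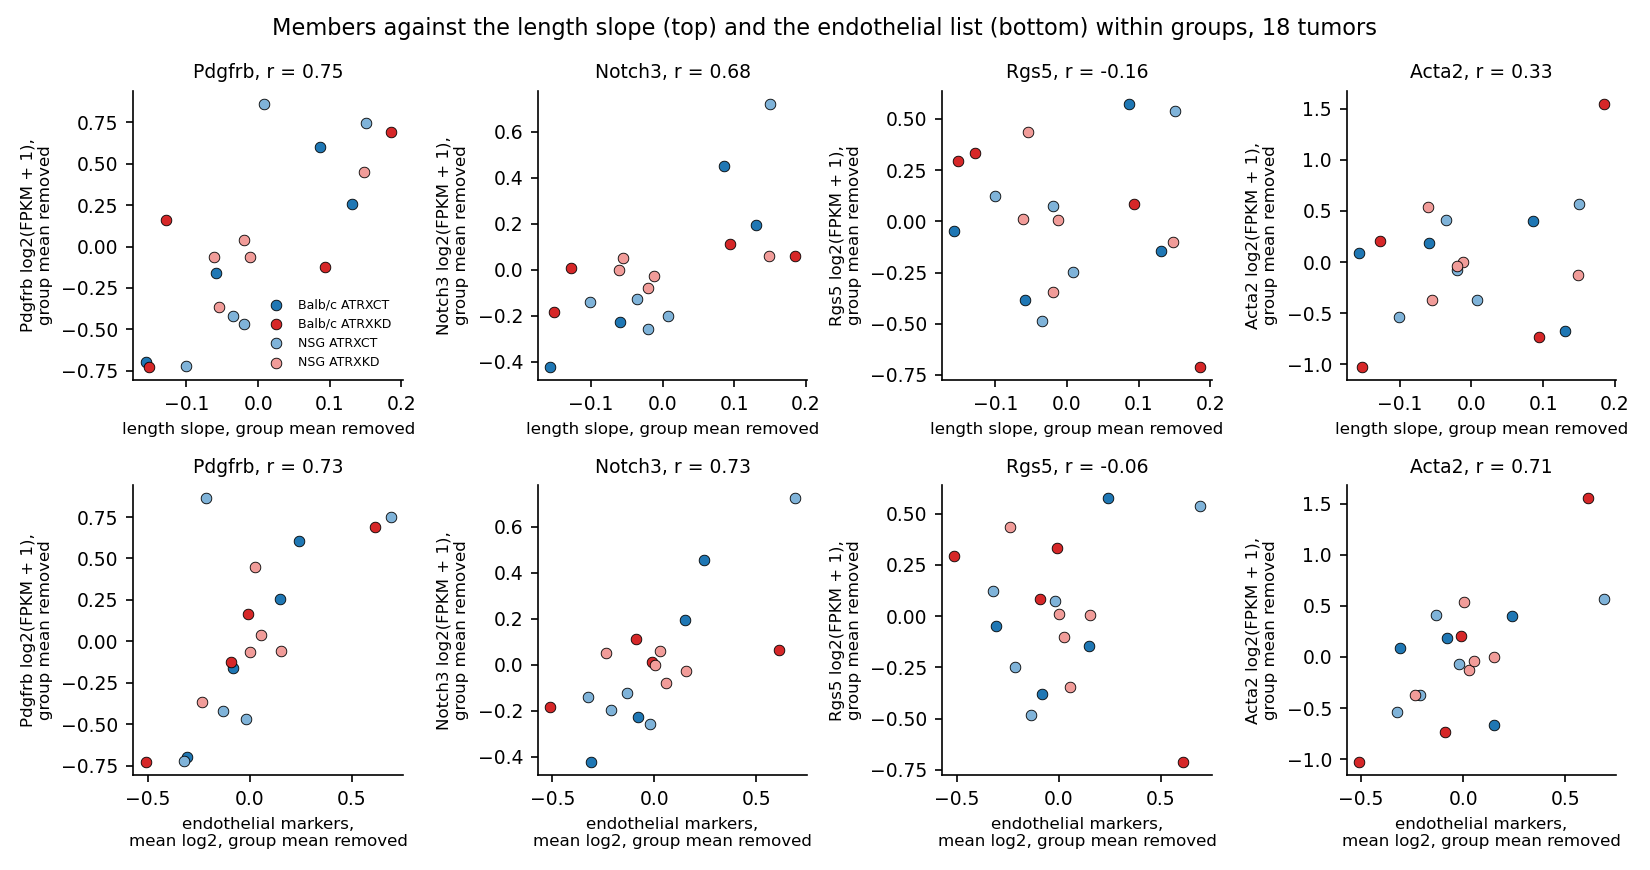
Level of *Pdgfrb*, *Notch3*, *Rgs5*, and *Acta2* (log2 (FPKM + 1), group means removed) against the slope along transcript length (top row) and the mean of the 10 endothelial markers (bottom row) in 18 tumors, each point being 1 tumor. *Pdgfrb* and *Notch3* rise along both axes (r from 0.68 to 0.75), and *Rgs5* shows no clear trend on either (r = −0.16 and −0.06).

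Across the 12177 genes that averaged 1 FPKM or more, those whose values followed the mean of the 4 pericyte members most closely within groups were *Col6a3*, a collagen VI chain (r = 0.92), *Ahr*, the aryl hydrocarbon receptor (0.872), *Csf1r*, the macrophage colony-stimulating factor receptor (0.866), *Tbc1d5* (0.842), and *Cers6*, a ceramide synthase (0.842). With the length trend removed, *Col6a3* (0.885), *Csf1r* (0.807), and *Tbc1d5* (0.806) were still among the closest 5. For the mean of the 4 contractile members, they were *Loxl4*, a lysyl oxidase (0.915), *Sptlc2* (0.848), *Zfand3* (0.839), *Dcn*, the proteoglycan decorin (0.838), and *Nr4a1*, a nuclear receptor (0.832). These correlations describe the same 18 libraries, which share depth and length slope, and were picked as the highest of many.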

How the data were processed

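Total RNA of 18 tumors was sequenced from ribo-depleted, stranded libraries. The authors aligned reads to mm10 with STAR 2.6.0c, removed low-quality and duplicate reads, and quantified RefSeq genes with Cufflinks 2.2.1. The deposited values are log2 (FPKM + 1); base 2 was settled from the values. The matrix holds 20878 genes and 92 spike-ins, and spike-ins were left out. The authors compared groups with DESeq, which needs counts, so limma 3.58.1 in R 4.3.3 (lmFit, eBayes with trend) took its place. Each pair of groups was fitted alone, and interactions over all 4 groups, for genes averaging 0.1 FPKM or more. Between 37.0 and 45.4% of low values lay within 0.1 of a whole fragment (20% by chance), so whole reads were not recovered. Floors of 3 fragments cover counting error only. Figures were drawn in Python 3.11.15. Groups came from the labels, and the 18 columns had 0 identical pairs (correlations 0.961 to 0.994). The test steps were tested on simulated data.

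The members and the 14 gene lists were chosen with earlier results of these data known. Named genes were the members, *Atrx*, up to 3 called genes per list, direction, and comparison, otherwise examples by level, and the 5 closest non-members per role. Other genes named (*Eif2s3y*, *Pcsk7*, *Anpep*, *Tbx18*, list genes past the adjusted threshold at any fold, and smooth muscle, PDGF, and Notch genes given by role) were chosen after their values were seen. Alternatives were a pseudocount of 0.1, median-ratio and quantile scaling, no filter or at least 1 FPKM, no fold threshold, library weights, removal of the trend along transcript length, 1 fit of all groups, and leaving out each tumor. The averaged contrasts and the correlations, each with 100000 permutations within groups, were added after seeing the data.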

Additional observations from a re-analysis of the deposited data

Results flagged for a closer look

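Over the 32 sets of 1 member and 1 group, 3 held a tumor far from the rest by a gap test at 95% (Dixon), where chance gives about 1.6. *Notch3* in the ATRXCT tumor of NSG mouse 3 was at 1.23 on the log2 (FPKM + 1) scale, which is 1.34 FPKM, against 0.25 to 0.38 in the other 4 tumors of the group. *Myh11* in the same tumor was at 0.4 (0.323 FPKM), against 0.08 to 0.13. *Tagln* in the ATRXCT tumor of Balb/c mouse 44 was at 2.34 (4.05 FPKM), against 1.83 to 1.85. With the trend along transcript length removed, these tumors were at 1.11 against 0.26 to 0.45, at 0.36 against 0.08 to 0.15, and at 2.24 against 1.83 to 1.98.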

How the results depend on the processing

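No paired analysis was possible because the mouse numbers of the 4 groups are all different. Of 350 member fold changes under alternatives that kept all tumors, 330 kept their direction and their side of the call, which needs both the adjusted p and the 2-fold change, 1 became called, and 19 changed sign, none of them at an adjusted p under 0.05. The newly called value was *Rgs5* between hosts in ATRXKD tumors with library weights (1.07, adjusted p = 0.00116 in limma), which made 1 member called. Without a fold threshold, 2 members passed for the averaged host difference. At any fold, library weights also brought the adjusted p in limma under 0.05 in ATRXCT tumors for *Rgs5* (0.0273), *Cspg4* (0.0293), and *Acta2* (0.0218), in ATRXKD tumors for *Notch3* (0.0254, and 0.0407 with no filter), and averaged for *Notch3* (0.00606) and *Tagln* (0.0281). The averaged adjusted p was 9.27e-05 to 0.0153 for *Rgs5* and 0.00736 to 0.0594 for *Cspg4*, which lost the threshold with quantile scaling (0.0517) and with the length trend removed (0.0594). The cause of the sign changes was not tested. For the knock-down in Balb/c mice, library weights gave 0.32 for *Rgs5*, −0.08 for *Acta2*, and 0.46 for *Tagln*. In NSG mice they gave −0.01 for *Rgs5* and 0.26 for *Acta2*, and removal of the length trend gave −0.01 for *Rgs5*. For the interaction, weights gave 0.37 for *Rgs5* and −0.34 for *Acta2*. For the knock-down over both hosts, weights gave 0.18 for *Rgs5*, 0.04 for *Cspg4*, 0.06 for *Notch3*, 0.02 for *Myh11*, and 0.17 for *Tagln* (−0.30 as reported). Quantile scaling gave 0.01 for *Rgs5*, 0.02 for *Notch3*, and 0.01 for *Myh11*, a pseudocount of 0.1 gave 0.07 for *Notch3* and 0.00 for *Myh11*, and removal of the length trend gave 0.02 for *Notch3*. Leaving out 1 tumor at a time changed the sign of 52 of 630 values. In Balb/c mice, the knock-down values ranged from −0.16 to 0.21 for *Rgs5*, −0.21 to 0.09 for *Notch3*, −0.26 to 0.6 for *Acta2*, −0.12 to 0.01 for *Myh11*, and −0.47 to 0.17 for *Tagln*. In NSG mice, they ranged from −0.1 to 0.16 for *Rgs5*, −0.01 to 0.1 for *Cspg4*, −0.05 to 0.2 for *Notch3*, −0.19 to 0.09 for *Acta2*, and −0.01 to 0.07 for *Myh11*. The host difference of *Tagln* in ATRXCT tumors ranged from −0.02 to 0.25. The interaction ranged from −0.18 to 0.19 for *Rgs5*, −0.26 to 0.07 for *Notch3*, −0.2 to 0.66 for *Acta2*, and −0.13 to 0.0 for *Myh11*. Over both hosts, the knock-down ranged from −0.07 to 0.11 for *Rgs5*, −0.05 to 0.0 for *Cspg4*, −0.09 to 0.07 for *Notch3*, −0.16 to 0.27 for *Acta2*, and −0.05 to 0.01 for *Myh11*.

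Counts over all genes moved more. For the knock-down in Balb/c mice, the 1 called gene became 0 with no filter or with at least 1 FPKM, 15 with library weights, 6 with all groups in 1 fit, and 0 to 2 with 1 tumor left out. In NSG mice, 68 became 994 without a fold threshold, 226 with a pseudocount of 0.1, 201 with weights, and 27 to 124 with 1 tumor left out. Without a fold threshold and with a pseudocount of 0.1, the host comparisons gave 472 and 416 in place of 212 in ATRXCT tumors, 534 and 424 in place of 204 in ATRXKD tumors, and 1560 and 544 in place of 213 averaged. The interaction gave 195 with weights in place of 0. The knock-down over both hosts gave 351, 58, and 41 (weights) in place of 18. Depth limits *Cnn1*, *Myh11*, and *Cspg4* most, since their values rest on few fragments.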

Other observations

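*Csf1r* lies 20504 nt from *Pdgfrb* on the same strand of chromosome 18 and had a mean of 316 FPKM over the 18 tumors. With group means removed, its r was 0.83 with *Pdgfrb* (rho = 0.84), 0.88 with *Notch3*, 0.87 with *Myh11*, and 0.70 with *Cspg4*, the last 3 on other chromosomes, against 0.16 with *Rgs5* and −0.07 with *Tagln*. With the trend along transcript length removed, the first 4 were 0.76, 0.76, 0.81, and 0.38. The mean of the 8 macrophage markers, *Csf1r* among them, did not follow these genes, with r of −0.42 for *Pdgfrb*, −0.05 for *Notch3*, −0.35 for *Myh11*, and −0.19 for *Cspg4*. These values are a description of 18 libraries, and *Csf1r* was picked as one of the closest genes.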
